A study of Mus musculus with 6 samples.

Results

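Macroautophagy is carried out by a set of conserved proteins, and the 40 genes described here encode the core of that machinery and the receptors that select its cargo. The members were a list of gene symbols, sorted by role into the ULK1 initiation complex (5 genes), the class III PI3-kinase complex (5 genes), PI3P effectors and lipid supply (5 genes), ATG8 conjugation and processing (10 genes), the ATG8 family (5 genes), soluble cargo receptors (5 genes) and ER-phagy receptors (5 genes). The list goes by gene function and uses no threshold on the measured values. It was chosen, like the related lists below, with earlier results of these data known. All 40 were found by Ensembl identifier among the 43271 genes of the deposited count table, and all 40 were among the 14101 genes with enough counts to be tested. The cells were primary brain microvascular endothelial cells, the cells that line the small vessels of the brain, from wild-type C57BL/6 mice, used at passage 2 to 6 in medium with 5% serum. Confluent cultures received for 24 h either the vehicle DMSO (3 libraries) or 5000 ng/ml dolutegravir (DTG), an HIV integrase inhibitor (3 libraries), and the title of the study names ER stress in the blood-brain barrier as its subject. RNA was extracted with TRIzol, and poly(A) libraries were made from 2 µg with a strand-preserving kit. The labels are silent on whether replicate libraries stem from separate cultures or animals, and every p-value here therefore measures the spread among these 6 libraries, which may be technical.

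Library totals ran from 41162353 to 56316335 counts, and no 2 libraries of a group agreed within counting noise. Library names carry an undefined P4 or P5 tag. DMSO replicate 1 and DTG replicates 2 and 3 are P4. DMSO replicates 2 and 3 and DTG replicate 1 are P5. The names also hold a number that is not defined. DMSO replicates 1 and 2 share number 1, and DMSO replicate 3 has number 3. DTG replicates 1 and 2 share number 2, and DTG replicate 3 has number 3. A common origin of libraries with a shared number was not tested. The endothelial identity of the cells was checked with 10 markers, all of which were tested, and their summed level was 11159 to 12134 counts per 1000000 (CPM) in DMSO and 6835 to 7147 CPM in DTG. The markers did not move as one: Vwf (-1.64 on the log2 scale) and Kdr (-1.22) fell most. Tek (-0.90), Pecam1 (-0.81), Tie1 (-0.79), Cldn5 (-0.67), Erg (-0.55) and Emcn (-0.33) fell as well, while Cdh5 (0.17) and Flt1 (0.07) did not pass the test. Summed markers of pericytes (Rgs5 and Kcnj8 at 0), astrocytes (Aqp4 at 0), oligodendrocytes (Mog at 0), smooth muscle (Cnn1 at 0), fibroblasts and epithelium (Epcam and Ttr at 0) stayed at or below 8.68 CPM in every library. The 4 neuron markers summed to 0.158 to 0.322 CPM in DMSO and 2.21 to 6.04 CPM in DTG, where nearly all of it was Tubb3. The 7 microglia and macrophage markers summed to 107 to 125 CPM in DMSO and 128 to 186 CPM in DTG, nearly all of it Cd68, a lysosomal protein, and Tmem119, while P2ry12 was at 0. These moved apart: Cd68 rose from 91.4 ± 7.35 to 140.4 ± 33.6 CPM and Tmem119 fell from 26.7 ± 2.98 to 6.93 ± 0.766 CPM. The part of these marker differences in the results that follow was not tested. In a culture measured in bulk, fewer cells of a type and less RNA per cell cannot be told apart.

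Autophagy begins when the ULK1 kinase complex and the class III PI3-kinase complex mark a patch of ER membrane with the lipid PI3P. PI3P-binding proteins and lipid transfer proteins then build a cup-shaped membrane, and a ubiquitin-like conjugation system attaches ATG8 proteins (the LC3 and GABARAP families) to it. Cargo receptors hold both the cargo and ATG8, and in ER-phagy they sit in the ER membrane itself, so that pieces of the ER are enclosed and carried to the lysosome. Several of these genes are known targets of stress-responsive transcription factors in other cells.

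Of the 40 genes, 9 were higher and 14 were lower in DTG at an adjusted p under 0.05, and 17 did not pass. These 23 genes are 57.5% of the members, and 56.7% of all genes tested passed, so the share of members called was near the background. The higher share was 22.5% of members against 27.4% of all genes, and the lower share was 35% against 29.3%. Values did not overlap between the groups for 25 members (62.5%), against 64.2% of all genes. The split depended on scaling, and that of all genes moved the same way. With library size alone, which moved the median of all genes by -0.17 log2, 4 members were higher and 21 lower. Of the 14101 genes tested, 2536 were then higher and 5730 lower. With upper-quartile factors 5 members were higher and 17 lower, and 3069 of all genes were higher and 4963 lower. The counts by role group and related list below are to be read beside these values for all genes. Fewer members passed without DTG replicate 2 (13, of which 7 were lower) or without DTG replicate 3 (14, of which 7 were lower), and 5 were higher without DMSO replicate 1. The shares of all genes in these fits are not given here. A loss of calls particular to the members therefore cannot be told from a general one. All 23 called members had the same sign in the P4 libraries alone and in the P5 libraries alone, as had 7986 of the 7990 genes called in all. Values did not overlap between the groups for any of these 23, which fixes the sign in any subset. The equal signs are therefore no check on the tag.

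The median absolute log2 change of the members was 0.25, against 0.37 for all genes tested. The members were better counted, with a median level of 60.0 CPM against 24.8 CPM for all genes tested, and the 2 sets were not matched by level. A called change of at least 1 on the log2 scale was seen in 1 of 40 members (2.5%), against 14.6% of all genes, and a called change of at least 0.5 in 8 of 40 (20%), against 35%. The median signed log2 change was -0.08 for the members and -0.01 for all genes. Standard errors ran from 0.067 to 0.26, with a median of 0.084, and 37 of the 40 genes had a mean level above 10 CPM. For the 17 members that did not pass, the 95% intervals of the log2 change lay between -0.56 and 0.36.

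**Figure D1:**
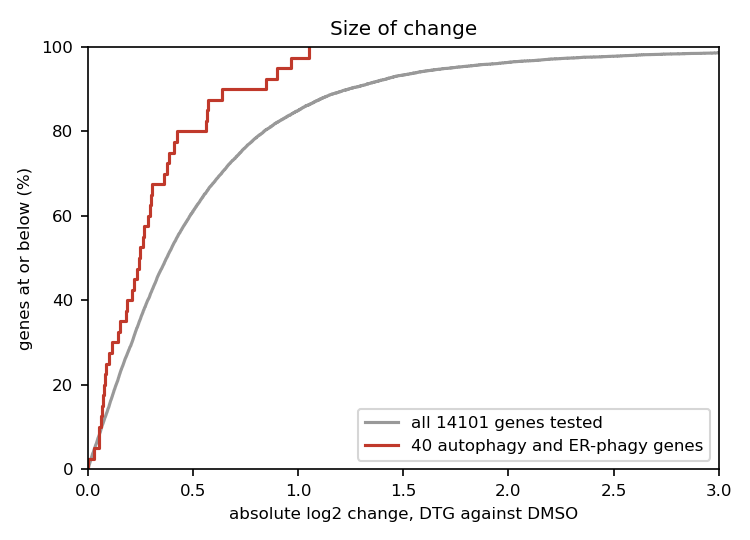
The share of genes (y axis, %) whose absolute log2 change is at or below the value on the x axis, for the 40 autophagy and ER-phagy genes (red) and for all 14101 genes tested (grey). The red line lies to the left of the grey line over most of the range and ends at 1.05, while 14.6% of all genes passed the test with a change of at least 1.

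**Figure D2:**
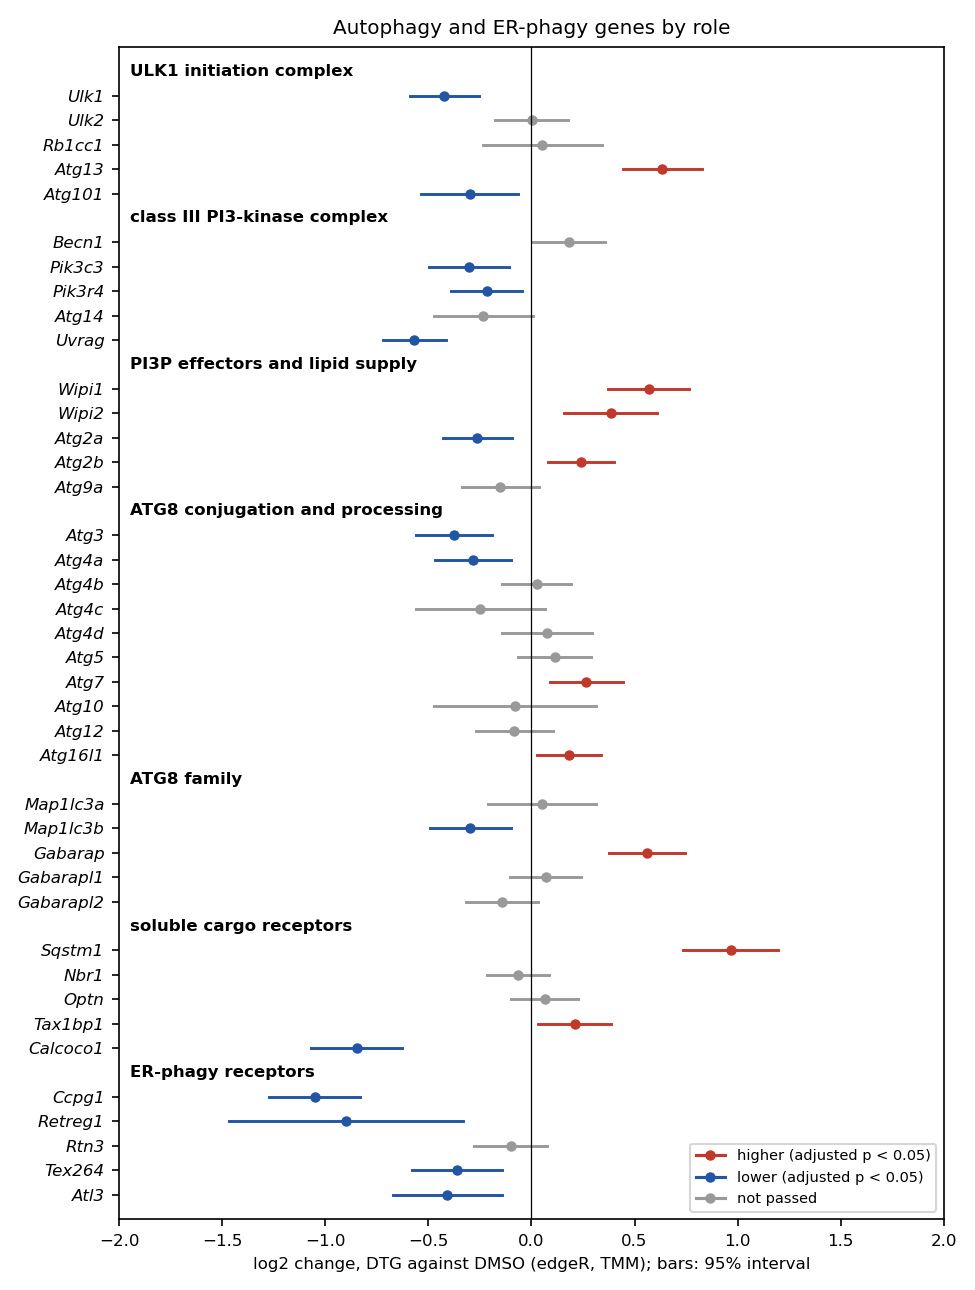
The log2 change of each of the 40 genes, DTG against DMSO (x axis), with its 95% interval, grouped by role. Ccpg1, Calcoco1 and Retreg1 lie farthest to the left and Sqstm1 and Atg13 farthest to the right.

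The promoters of 5 members are shown because 3 of them had the largest changes in either direction among well-counted members (Ccpg1, Calcoco1, Sqstm1), 1 had the next largest rise (Atg13) and 1 was the ATG8 family gene that rose (Gabarap). Hspa5, the gene of the ER chaperone BiP, is shown for comparison and was chosen after its values were seen. Each line gives the 250 bases before the transcription start, 5′ to 3′ on the gene's own strand, from RefSeq promoter entries on GRCm38.p6, with matches to the searched motifs in capitals. The windows lie at chr9:72985254-72985503 (plus strand) for Ccpg1, chr15:102722179-102722428 (minus strand) for Calcoco1, chr11:50210821-50211070 (minus strand) for Sqstm1, chr2:91710593-91710842 (minus strand) for Atg13, chr11:69991120-69991369 (plus strand) for Gabarap and chr2:34771840-34772089 (plus strand) for Hspa5.
Ccpg1: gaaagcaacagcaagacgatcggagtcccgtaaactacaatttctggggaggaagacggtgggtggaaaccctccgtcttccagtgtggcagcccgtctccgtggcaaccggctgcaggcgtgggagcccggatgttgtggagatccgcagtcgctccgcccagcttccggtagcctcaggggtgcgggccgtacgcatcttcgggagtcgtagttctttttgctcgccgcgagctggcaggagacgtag
Calcoco1: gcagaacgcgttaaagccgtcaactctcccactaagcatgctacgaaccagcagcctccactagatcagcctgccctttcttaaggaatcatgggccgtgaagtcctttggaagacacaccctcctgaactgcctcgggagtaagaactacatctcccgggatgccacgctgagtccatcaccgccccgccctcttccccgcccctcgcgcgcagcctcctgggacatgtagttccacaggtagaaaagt
Sqstm1: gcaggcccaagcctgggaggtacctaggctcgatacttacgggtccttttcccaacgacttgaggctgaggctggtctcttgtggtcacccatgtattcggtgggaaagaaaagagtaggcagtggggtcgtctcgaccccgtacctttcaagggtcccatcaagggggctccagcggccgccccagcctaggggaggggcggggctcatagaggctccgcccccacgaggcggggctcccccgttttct
Atg13: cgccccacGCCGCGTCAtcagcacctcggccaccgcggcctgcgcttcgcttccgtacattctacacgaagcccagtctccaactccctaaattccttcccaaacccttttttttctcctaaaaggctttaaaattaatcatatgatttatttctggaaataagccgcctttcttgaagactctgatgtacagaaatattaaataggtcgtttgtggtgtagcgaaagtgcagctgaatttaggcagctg
Gabarap: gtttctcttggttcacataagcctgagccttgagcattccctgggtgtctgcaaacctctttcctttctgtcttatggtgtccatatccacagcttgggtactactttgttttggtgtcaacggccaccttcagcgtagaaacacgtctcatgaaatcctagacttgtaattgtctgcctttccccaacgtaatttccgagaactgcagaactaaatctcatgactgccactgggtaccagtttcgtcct
Hspa5: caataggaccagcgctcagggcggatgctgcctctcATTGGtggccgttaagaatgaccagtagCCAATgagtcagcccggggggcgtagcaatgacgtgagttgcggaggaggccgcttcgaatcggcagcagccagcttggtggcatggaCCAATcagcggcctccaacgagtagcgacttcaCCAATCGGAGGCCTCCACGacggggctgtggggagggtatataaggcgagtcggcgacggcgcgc
The capitals in Hspa5 are an ER stress element (ERSE) at 65 to 47 bases before the start and CCAAT boxes, of which 1 lies inside the ERSE. The capitals in Atg13 are 1 antioxidant response element core (ARE core), which reads TGACNNNGC on the opposite strand, at 242 to 234 bases before the start. Windows were found for 34 of the 40 members (42 windows, since some genes have several starts), and Rb1cc1, Becn1, Pik3c3, Atg12, Atg16l1 and Map1lc3a had no entry in the table.

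The 6 motifs were searched on both strands in these 42 windows and in all 32851 windows of the table. The ERSE, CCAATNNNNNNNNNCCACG, bound by ATF6 with NF-Y, was in 0 member windows and in 0.113% of all windows. The unfolded protein response element TGACGTGG was likewise in 0 member windows and in 0.563% of all. The core of the CHOP and ATF4 composite site, TGATGNAA, was in 0 member windows and in 3.45% of all. TCACGTGA, the CLEAR site of TFEB and its relatives, was in 1 member window, that of Atg3, and in 0.785% of all. The ARE core was in 4 member windows (Atg13, Rtn3, Tax1bp1 and Ulk2; 9.52%) and in 10.2% of all. CCAAT alone was in 10 member windows (23.8%) and in 33.8% of all. A match is a run of letters and not a measured binding site, and these windows leave out introns and distant elements.

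Among the 5 genes of the ULK1 initiation complex, 1 rose and 2 fell, with a median log2 change of 0.00. Ulk1, the kinase that starts the process, was at 139.9, 133 and 127 CPM in DMSO replicates 1 to 3 and at 105, 97.4 and 95.8 CPM in DTG replicates 1 to 3. Every DTG library was below every DMSO library, and Ulk1 fell by 0.42 ± 0.08 on the log2 scale (SE; adjusted p = 0.000857, edgeR). Atg13, a partner protein through which the kinase is regulated, moved the other way. It was at 36.6, 40.1 and 36.3 CPM in DMSO and at 53.1, 61.1 and 61.4 CPM in DTG, and the groups did not overlap. Atg13 thus rose by 0.64 ± 0.09 (adjusted p = 0.000149), 0.74 in P4 libraries alone and 0.47 in P5 alone. Atg101, which stabilises ATG13, fell from 37.7 ± 5.53 to 30.7 ± 0.715 CPM (SD, n = 3), a log2 change of -0.30 ± 0.11 (adjusted p = 0.0338). That call was lost without any 1 of DMSO replicates 1 and 2 and DTG replicates 1, 2 and 3, and its adjusted p ran from 0.00271 to 0.148 over 16 alternatives. Ulk2, the second kinase gene, had a log2 change of 0.00 ± 0.08 (adjusted p = 0.998). Rb1cc1, the scaffold FIP200, had 0.05 ± 0.13 (adjusted p = 0.754), with DMSO replicate 3 at 75.5 CPM and the other libraries between 51.7 and 63.8 CPM, and it passed as higher without DMSO replicate 3.

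In the class III PI3-kinase complex, 3 of 5 genes fell and none rose, with a median of -0.23; with library size alone or upper-quartile factors 4 fell. DESeq2 called Becn1 higher, as did the fit without DTG replicate 1, and leaving out DTG replicate 2 or 3 left 1 gene lower. That gene was Uvrag, the subunit of the endosomal form of the complex. Uvrag was at 116, 121 and 120.1 CPM in DMSO and at 82.1, 80.8 and 77.9 CPM in DTG, so the libraries of each group lay close together and far from the other group. The log2 change was -0.57 ± 0.07 (adjusted p = 7.29e-05), and it was -0.54 in P4 libraries alone and -0.56 in P5 alone. Pik3c3, the lipid kinase VPS34 itself, fell from 21.8 ± 1.38 to 17.7 ± 0.568 CPM (log2 -0.30 ± 0.09, adjusted p = 0.0134). The call of Pik3c3 was lost without DTG replicate 2 or 3 (adjusted p 0.00114 to 0.0968 over the alternatives). Pik3r4, the pseudokinase subunit VPS15, fell from 45.1 ± 1.32 to 38.8 ± 2.40 CPM (log2 -0.22 ± 0.08, adjusted p = 0.0344). That call was lost under 8 of the 16 alternatives, among them those with the P tag as a term and those without DMSO replicate 1 or 2 or DTG replicate 2 or 3 (adjusted p 0.00223 to 0.208). Atg14, which directs the complex to the ER, did not pass (-0.23 ± 0.11, adjusted p = 0.0893). Becn1, the beclin 1 scaffold, was at 125, 126 and 125 CPM in the DMSO libraries and at 131, 154 and 143 CPM in the DTG libraries (0.18 ± 0.08, adjusted p = 0.0677). Its annotated exons share 3104 bases with Cntd1 on the other strand, which had 61 counts in the 3 DMSO libraries and 23 in the 3 DTG libraries.

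Of the 5 PI3P effector and lipid supply genes, 3 rose and 1 fell, with a median of 0.24; with library size alone 1 rose and 2 fell, and with upper-quartile factors 2 rose and 2 fell. Wipi1, which binds PI3P on the forming membrane, was at 25.2, 26.0 and 24.6 CPM in DMSO and at 33.6, 39.9 and 39.2 CPM in DTG. The DTG libraries were all higher, and the log2 change was 0.57 ± 0.09 (adjusted p = 0.000368). Wipi2, the relative that recruits the ATG16L1 complex, was at 150.3, 148 and 137 CPM in DMSO and at 159.8, 207 and 202 CPM in DTG, where replicate 1 was lower than replicates 2 and 3. It rose by 0.38 ± 0.10 (adjusted p = 0.00866), a call lost with library size alone. The paralogs Atg2a and Atg2b encode channel-like proteins that carry lipids from the ER to the growing membrane. Atg2a fell from 70.0 ± 3.34 to 58.3 ± 2.74 CPM (log2 -0.26 ± 0.08, adjusted p = 0.013), and Atg2b rose from 92.2 ± 4.69 to 109 ± 2.88 CPM (0.24 ± 0.07, adjusted p = 0.0161). The Atg2a call was lost without DMSO replicate 1 or DTG replicate 3 (adjusted p 0.000655 to 0.102 over the alternatives), and that of Atg2b with library size alone, with upper-quartile factors and without DMSO replicate 1 or 2 or DTG replicate 2 (0.00401 to 0.421). Atg9a, the lipid scramblase of the seed vesicles, did not pass (-0.15 ± 0.08, adjusted p = 0.15), though it passed as lower without DMSO replicate 3.

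**Figure D3:**
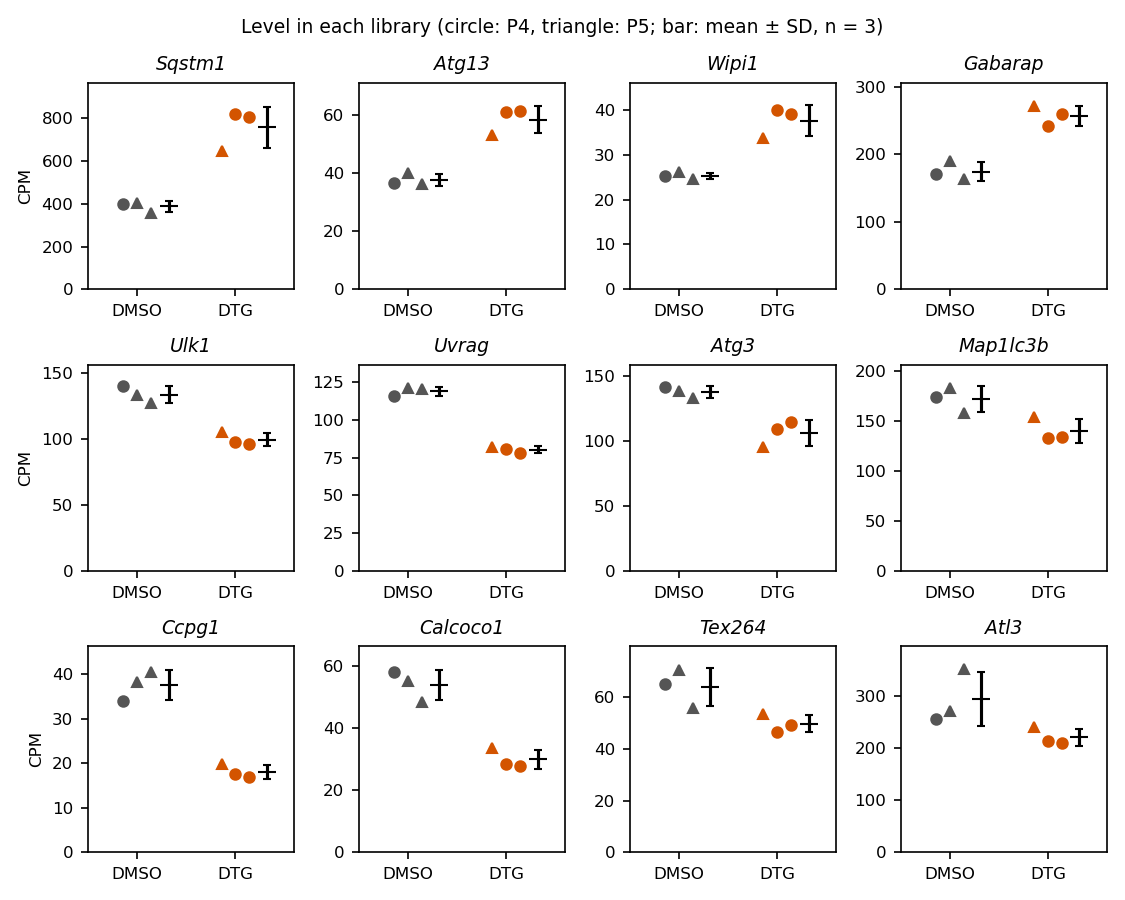
CPM (y axis, from 0) of 12 members in each library, DMSO in grey and DTG in orange, circles for P4 and triangles for P5, with mean ± SD (n = 3). In all 12 panels the 3 DTG libraries lie wholly above (first row) or wholly below (other rows) the 3 DMSO libraries.

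The conjugation genes changed little. Of 10, 2 rose and 2 fell, with a median of -0.03 and no absolute change of 0.5 or more; with library size alone 0 rose and 4 fell, and with upper-quartile factors 0 rose and 2 fell. Atg3, the E2-like enzyme that passes ATG8 proteins to lipid, was at 142, 139 and 133 CPM in DMSO and at 95.3, 109 and 114 CPM in DTG. No DTG library reached the lowest DMSO library, and Atg3 fell by 0.38 ± 0.08 (adjusted p = 0.00334). Atg7, the E1-like enzyme that activates both ATG8 and ATG12, was at 32.8, 35.0 and 33.9 CPM in DMSO and at 43.9, 38.8 and 39.6 CPM in DTG. It rose by 0.27 ± 0.08 (adjusted p = 0.0163), a call lost with library size alone, with upper-quartile factors and without DMSO replicate 1 (adjusted p 0.00479 to 0.341). The 2 enzymes that act in sequence on ATG8 thus moved in opposite directions in these libraries under this scaling. Atg4a, a protease that trims ATG8 proteins and frees them from lipid, fell from 27.3 ± 1.21 to 22.4 ± 0.99 CPM (-0.28 ± 0.08, adjusted p = 0.0138), a call lost without DTG replicate 3 (0.000879 to 0.113). Atg16l1, which places the E3-like complex on the membrane, rose from 55.0 ± 1.33 to 62.4 ± 1.93 CPM (0.18 ± 0.07, adjusted p = 0.0484). That call held under 6 of 16 alternatives and was lost once the P tag was a term and without any 1 library other than DTG replicate 1 (adjusted p 0.0127 to 0.915). Atg5 (0.11 ± 0.08) and Atg12 (-0.08 ± 0.08), which are joined to each other in the same E3-like complex, did not pass. Neither did Atg10 (-0.08 ± 0.18), the E2-like enzyme for ATG12, nor the proteases Atg4b (0.03 ± 0.08), Atg4c (-0.25 ± 0.14) and Atg4d (0.08 ± 0.10). On GRCm38, exons of Atg4d share 1405 bases with Kri1 on the other strand. Kri1 had 5866 counts over the DMSO libraries and 9940 over the DTG libraries, against 2542 and 2648 for Atg4d. The part of Kri1 reads in the Atg4d values was not tested.

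The ATG8 family split: of 5 genes, 1 rose, 1 fell and 3 did not pass, with a median of 0.05; with library size alone or upper-quartile factors 1 rose and 2 fell. Gabarap was at 170.4, 189.9 and 163 CPM in DMSO and at 271, 242 and 259.8 CPM in DTG. Every DTG library was above every DMSO library, and Gabarap rose by 0.56 ± 0.08 on the log2 scale (adjusted p = 0.00028), 0.56 in P4 libraries alone and 0.62 in P5 alone. Map1lc3b, which encodes LC3B, the usual marker protein of autophagosomes, was at 174, 183 and 158 CPM in DMSO and at 154, 133 and 133 CPM in DTG. The highest DTG library, replicate 1, lay just below the lowest DMSO library, replicate 3. Map1lc3b fell by 0.30 ± 0.09 (adjusted p = 0.0157), and the call was lost without DMSO replicate 2 or DTG replicate 2 or 3 (adjusted p 0.00157 to 0.0983). Map1lc3a (0.05 ± 0.12), Gabarapl1 (0.07 ± 0.08) and Gabarapl2 (-0.14 ± 0.08) did not pass.

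Of the 5 soluble cargo receptors, which link ubiquitin-marked or other cargo to ATG8, 2 rose and 1 fell, with a median of 0.06; with library size alone 1 rose and 2 fell, and with upper-quartile factors 1 rose and 1 fell. Sqstm1, the gene of p62, was at 401, 404 and 356 CPM in DMSO and at 647, 817 and 805 CPM in DTG. DTG replicate 1 was the lowest of its group and still well above the highest DMSO library. The rise from 387 ± 26.8 to 757 ± 94.8 CPM (SD, n = 3 each) was 1.95-fold, or 0.97 ± 0.10 on the log2 scale (adjusted p = 3.17e-05), the largest rise among the 40 genes, 1.02 in P4 libraries alone and 0.77 in P5 alone. Calcoco1, a receptor described for both ER and Golgi membranes, was at 58.2, 55.2 and 48.5 CPM in DMSO and at 33.5, 28.5 and 28.0 CPM in DTG. The groups did not overlap, and it fell by 0.85 ± 0.10 (adjusted p = 5.95e-05), -1.04 in P4 libraries alone and -0.63 in P5 alone. Tax1bp1, a ubiquitin-binding receptor, rose from 135 ± 9.68 to 156 ± 6.64 CPM (0.21 ± 0.08, adjusted p = 0.0428). This call was lost under 9 of 16 alternatives, among them those with the P tag as a term and those without DMSO replicate 1 or 2 or DTG replicate 2 or 3 (adjusted p 0.00926 to 0.683). Nbr1, which works beside p62, was at 182 ± 2.30 CPM in DMSO and 174 ± 3.40 CPM in DTG (-0.07 ± 0.07, adjusted p = 0.426). Optn, a receptor for bacteria and mitochondria, was also not called (0.06 ± 0.07, adjusted p = 0.476).

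All 5 ER-phagy receptor genes had lower mean levels in DTG, with a median of -0.41. At the threshold 4 fell (80%), against 29.3% of all genes tested, though 5 genes make a coarse share. These genes were also chosen with earlier results of these data known. With library size alone all 5 fell, and with upper-quartile factors 4 fell. Without DTG replicate 2 only Ccpg1 passed, and without DTG replicate 3 Atl3 was lost. Ccpg1, an ER membrane receptor that binds both FIP200 and ATG8 proteins, is known in other cells as a gene raised by the unfolded protein response. In these cells it was at 33.9, 38.3 and 40.5 CPM in DMSO and at 19.8, 17.6 and 16.9 CPM in DTG. The lowest DMSO library stood well above the highest DTG library, and the fall from 37.6 ± 3.35 to 18.1 ± 1.52 CPM was 2.07-fold (-1.05 ± 0.10 on the log2 scale, adjusted p = 1.38e-05). It was the largest change among the 40 genes, at -0.98 in P4 libraries alone and -0.99 in P5 alone. In the same libraries Hspa5, the standard target of that response, rose from 720.2 ± 40.3 to 13377 ± 2353 CPM, a log2 change of 4.22 ± 0.14 (adjusted p = 2.92e-08). On GRCm38, exons of Ccpg1 share 3213 bases with the same-strand gene Gm44503, which had 0 counts in 5 libraries and 20 in DTG replicate 3. They also share 2170 bases with Pigb on the other strand, which had 2429 counts over the DMSO libraries and 2334 over the DTG libraries.

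The remaining ER-phagy receptors changed less or rested on fewer reads. Retreg1 (FAM134B), which bends ER sheets, was near the detection limit with 36, 41 and 42 counts in the DMSO libraries and 22, 18 and 24 counts in the DTG libraries. These counts did not overlap, and the log2 change was -0.90 ± 0.26 (adjusted p = 0.0122). Tex264, a receptor with a long flexible ATG8-binding tail, was at 65.2, 70.7 and 56.0 CPM in DMSO and at 53.4, 46.7 and 49.3 CPM in DTG (-0.36 ± 0.10, adjusted p = 0.00941). Atl3, an ER-shaping GTPase and receptor for ER tubules, was at 257, 272 and 354 CPM in DMSO and at 240.5, 215 and 210.1 CPM in DTG, with DMSO replicate 3 far above the rest. Its log2 change was -0.41 ± 0.12 (adjusted p = 0.0135). Rtn3, the reticulon receptor of ER tubules, did not pass (-0.10 ± 0.08, adjusted p = 0.303). The adjusted p over the alternatives ran from 0.00455 to 0.0647 for Retreg1, 0.00121 to 0.0543 for Tex264 and 0.00189 to 0.0735 for Atl3.

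Pairs of related members were also read as ratios of their counts within each library, which no library scaling can alter. The ratio of Gabarap to Map1lc3b was 0.978, 1.04 and 1.03 in DMSO and 1.76, 1.82 and 1.95 in DTG, a 1.81-fold rise. The ratio of Atg13 to Ulk1 was 0.262, 0.301 and 0.286 in DMSO and 0.505, 0.627 and 0.641 in DTG, 2.08-fold higher. The ratio of Sqstm1 to Nbr1 was 2.23, 2.19 and 1.96 in DMSO and 3.80, 4.69 and 4.54 in DTG, 2.04-fold higher. None of these ranges overlapped between groups. The ratio of Atg2b to Atg2a rose 1.42-fold and that of Atg7 to Atg3 1.56-fold, also with no overlap. For each of these pairs the CPM values of the 2 genes already lay apart between groups in opposite directions. The lack of overlap in the ratios was therefore fixed in advance and adds no support. In all, 9 ratios were computed, on pairs chosen after their values were seen. Each gave a two-sided exact permutation p of 0.1, also after Benjamini-Hochberg adjustment, which is the smallest that 3 against 3 libraries allow. A ratio shows unequal change of the 2 genes and not which of them changed.

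**Figure D4:**
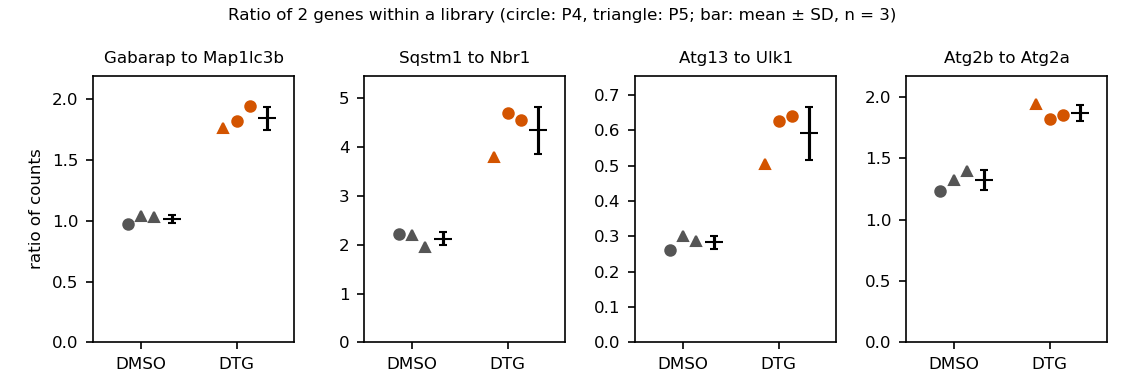
Ratio of the counts of 2 genes in the same library (y axis, from 0), DMSO in grey and DTG in orange, circles for P4 and triangles for P5, with mean ± SD (n = 3). In each of the 4 panels the DTG libraries lie above the DMSO libraries, from 1.76 to 1.95 against 0.978 to 1.04 for Gabarap to Map1lc3b.

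A list of 12 autophagy genes reported elsewhere to depend on ATF4 or CHOP during amino acid starvation is wholly made of members. In it, 4 rose (Sqstm1, Gabarap, Atg7, Atg16l1) and 2 fell (Atg3, Map1lc3b), with a median of 0.02; with library size alone 2 rose and 5 fell, and with upper-quartile factors 2 rose and 3 fell. Without DMSO replicate 1 only 2 rose, and without DMSO replicate 2, DTG replicate 2 or DTG replicate 3 only 1 fell. Atf4 itself, the transcription factor of the integrated stress response, rose from 125 ± 11.5 to 682 ± 156 CPM (2.45 ± 0.16, adjusted p = 3.24e-06). Ddit3, which encodes CHOP, rose from 19.4 ± 2.34 to 586 ± 159.7 CPM (4.91 ± 0.23, adjusted p = 1.7e-06). The 12 listed genes therefore had far smaller log2 changes, from -0.38 to 0.97, than either factor.

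Other genes of the pathway were taken from lists that hold no member. The 11 other ER-phagy receptor and UFMylation genes held 6 that rose and 3 that fell (81.8% called, against 56.7% of all genes tested). Because these 11 genes were chosen with earlier results of these data known, that share is no independent support. The median log2 change of the 11 genes was 0.54 against -0.01 for all genes tested, and the counts of the list were the same under all 4 scalings. UFMylation attaches the small protein UFM1 to ribosomes docked on the ER and takes part in ER-phagy. Ufm1 itself was at 52.3, 58.2 and 60.0 CPM in DMSO and at 101, 115 and 112 CPM in DTG, a log2 change of 0.94 ± 0.08 (adjusted p = 9.75e-06). Vapa, an ER membrane tether, rose from 99.2 ± 8.32 to 176 ± 11.1 CPM (0.83 ± 0.09, adjusted p = 2.75e-05). The following genes of the list were named after their values were seen. Ufc1 (0.54 ± 0.08) and Ufl1 (0.66 ± 0.08), the conjugating enzyme and the ligase of UFM1, the UFM1 protease Ufsp2 (0.62 ± 0.08) and the adaptor Cdk5rap3 (1.04 ± 0.11) rose as well. On GRCm38, exons of Cdk5rap3 share 227 bases with D030028A08Rik on the other strand. That gene had 347 counts over the DMSO libraries and 2045 over the DTG libraries. Vapb, the paralog of Vapa, fell (-0.36 ± 0.08). The 2 paralogs of Retreg1 were well counted, unlike Retreg1. Retreg2 fell from 109 ± 8.41 to 74.5 ± 11.4 CPM (-0.55 ± 0.11, adjusted p = 0.0018), and Retreg3 fell from 57.7 ± 3.79 to 32.6 ± 4.19 CPM (-0.82 ± 0.10, adjusted p = 8.01e-05). Ddrgk1 (0.16 ± 0.09) and the translocon receptor Sec62 (0.06 ± 0.09) did not pass.

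Of 12 other core autophagy genes, 4 rose and 1 fell, with a median of 0.09; with library size alone 3 rose and 4 fell, with upper-quartile factors 4 rose and 3 fell, and without DTG replicate 1 there were 2 that fell. The largest change in this list was that of Tmem41b, an ER lipid scramblase needed for autophagosome formation, which was at 38.6, 39.6 and 42.7 CPM in DMSO and at 124, 153 and 146 CPM in DTG. The groups were far apart, at 1.81 ± 0.10 on the log2 scale (adjusted p = 4.23e-07). Its partner Vmp1, also an ER scramblase, was at 85.8, 92.5 and 93.0 CPM in DMSO and at 173, 177 and 183 CPM in DTG (0.97 ± 0.07, adjusted p = 3.18e-06). Both passed under all 16 alternatives.

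The genes for the steps after the autophagosome is closed changed little in level. Of 12 genes for fusion with the lysosome, 2 rose and 1 fell (25% called, against 56.7% of all genes tested). Their median was -0.08, with no absolute change of 0.5 or more. With library size alone 0 rose and 7 fell (58.3% called, against 58.6% of all genes), so the low share was not seen under that scaling. With upper-quartile factors 0 rose and 3 fell (25%, against 57%). The SNARE gene Ykt6 rose by 0.28 ± 0.07 (adjusted p = 0.00822), and the adaptor gene Plekhm1 fell by 0.26 ± 0.08 (adjusted p = 0.0134). The Plekhm1 call was lost without DTG replicate 2 or 3 (adjusted p 0.00098 to 0.109), 1 of the 2 rises was lost without each single library other than DMSO replicate 3, and without DTG replicate 1 a second gene fell. Of 9 mitophagy genes, 2 rose and 2 fell, with a median of 0.10; with library size alone 0 rose and 3 fell, and with upper-quartile factors and without DMSO replicate 1 only 1 rose. The mitochondrial receptor gene Fundc1 fell from 27.3 ± 2.09 to 19.6 ± 1.23 CPM (-0.48 ± 0.09, adjusted p = 0.00148), and the kinase gene Pink1 fell from 28.3 ± 2.15 to 21.5 ± 1.78 CPM (-0.40 ± 0.10, adjusted p = 0.00517). Of 4 receptors for other cargo, 2 rose and 1 fell; with library size alone 1 rose and 1 fell, and the fall was lost without DMSO replicate 3 or DTG replicate 2 or 3. Tollip, a ubiquitin-binding adaptor, rose by 0.27 ± 0.07 (adjusted p = 0.0064), a call lost with library size alone. Stbd1, a receptor for glycogen, rose from 5 counts over the 3 DMSO libraries to 83 counts over the 3 DTG libraries (adjusted p = 0.000321).

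**Figure D5:**
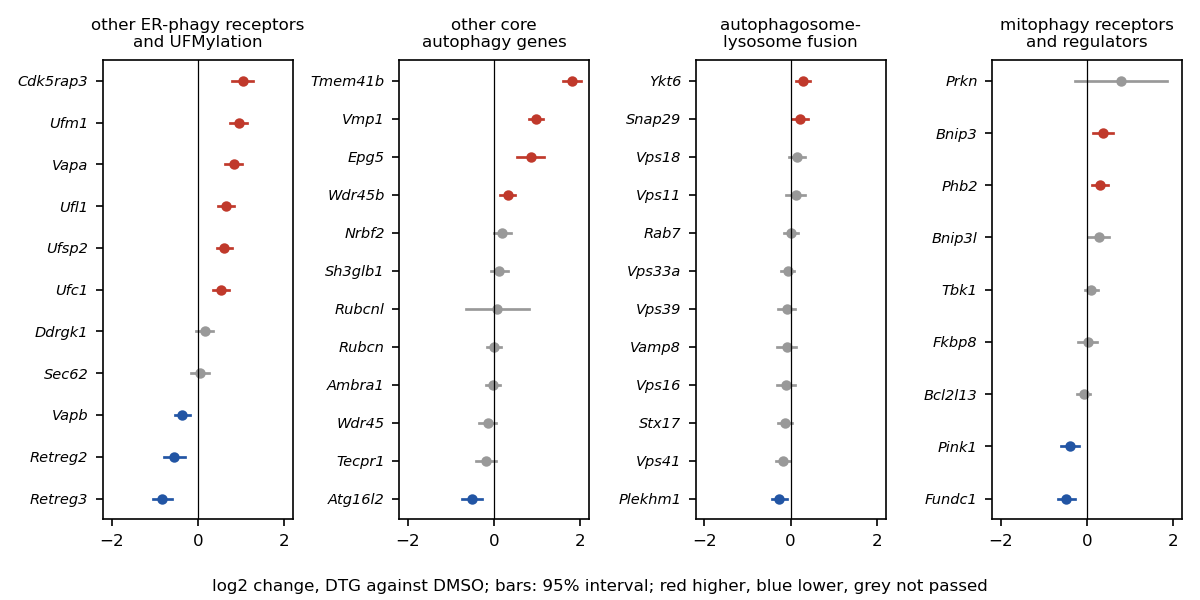
The log2 change of single genes (points) with its 95% interval (bars), DTG against DMSO (x axis), in 4 related lists that hold no member, with red for higher, blue for lower and grey for genes that did not pass. The UFMylation list reaches 1.04 with Cdk5rap3 and Tmem41b stands at 1.81 in the list of other core genes, while no gene of the fusion list reaches 0.5 in either direction.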

How the data were processed

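The authors deposited 1 table of raw read counts per gene for 6 libraries, per the file header with Ensembl gene identifiers, and the submitters' processing notes name the genome build GRCm39. For the aligner, the counter, the annotation and the strand setting, the answer is not given in the sources used here. The column spelled DIG was taken as DTG replicate 1, since the rest of its name matches that sample alone. Symbols were assigned to 38606 of the 43271 identifiers (89.2%) from a gene name table, and all 40 members matched.

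The analysis used edgeR 4.0.16 under R 4.3.3: filterByExpr, TMM scaling, robust quasi-likelihood fit, group as the only term, and Benjamini-Hochberg adjustment over all 14101 genes tested, called at 0.05. CPM are counts per 1000000 of the TMM-scaled library size and are not corrected for gene length, so levels were not compared between single genes. The fit was tested on simulated counts with known changes. Far fewer genes were changed in that simulation than were called here, so it does not cover scaling under such broad change. Alternatives were RLE, library size alone and upper-quartile scaling, no count filter or 1 CPM in 3 libraries, DESeq2 1.42.0, limma 3.58.1 (voom), no robust estimation, the title number or the P tag as a term, each library left out, and a threshold of 0.01. Values within the P4 and P5 libraries, and these alternatives for role groups and for genes outside the members, were added after the data were seen. Mean log2 differences within a tag carry no test.

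The members and the lists were chosen with earlier results of these data known. The text names all 40 members, the 2 genes with the smallest p-value among those that passed in each related list, and Atf4, Ddit3 and Hspa5, and it says where another gene was picked later. The list of other ER-phagy receptor and UFMylation genes is given without a further gene, which is not reported here. Exon overlaps were counted on GENCODE gene models of GRCm38, and 14 of the 40 members share exon bases with another gene, 2 of them on the same strand. Without a stated strand setting, reads from overlapping genes on opposite strands cannot be told apart. Promoter windows are RefSeq entries on GRCm38.p6. Figures were drawn in Python 3.11.15 with matplotlib 3.10.9.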

Additional observations from a re-analysis of the deposited data

How the results depend on the processing

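Of the 23 called members, 9 passed in the same direction under all 16 alternative fits (Ulk1, Atg13, Uvrag, Wipi1, Atg3, Gabarap, Sqstm1, Calcoco1 and Ccpg1), and 9 of the 17 others passed in at least 1. RLE scaling, limma-voom and the fit without robust estimation changed no member's call. At an adjusted p threshold of 0.01, 11 members passed, 5 higher and 6 lower. With library size alone 4 members and 2536 of all genes were higher, and with upper-quartile factors 5 members and 3069 of all genes. Leaving out 1 library at a time gave 13 to 24 members called, 5 to 10 higher and 7 to 15 lower, with the lowest counts without DTG replicate 2 (13), DMSO replicate 1 (5 higher) and DTG replicates 2 and 3 (7 lower each). The shares of all genes at the 0.01 threshold and without single libraries are not given here, so these counts do not single out the members. No called member turned its sign. Some members that did not pass turned negative when scaled by library size alone and by upper-quartile factors, at -0.17 and -0.092 for Ulk2, -0.12 and -0.040 for Rb1cc1, -0.14 and -0.067 for Atg4b, -0.096 and -0.018 for Atg4d, -0.12 and -0.043 for Map1lc3a, -0.10 and -0.024 for Gabarapl1 and -0.11 and -0.029 for Optn, as did Sec62 outside the members (-0.11 and -0.033). Library size alone also turned Atg5 (-0.056) and Ddrgk1 (-0.010). Ulk2 was at -0.00200 under the 1 CPM filter and Map1lc3a at -0.013 with the P tag as a term. Leaving out 1 library gave -0.035 to 0.061 for Ulk2, -0.049 to 0.25 for Rb1cc1, -0.015 to 0.094 for Atg4b, -0.000871 to 0.13 for Atg4d, -0.14 to 0.080 for Atg10, -0.042 to 0.17 for Map1lc3a and -0.013 to 0.16 for Sec62. Apart from fewer libraries and genes, the cause of these shifts was not tested. Retreg1 is not among the genes kept by the 1 CPM filter.

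The labels do not say whether the title's replicate numbers pair the libraries. Deviations from the group means correlated at -0.28, 0.009 and -0.05 for equal numbers. With 3 libraries per group these values cannot decide whether the libraries are paired. With the replicate block 20 members passed, 7 higher and 13 lower, and Pik3r4, Atg16l1 and Tax1bp1 lost their calls. Libraries with the same P tag correlated at 0.11 to 0.20, and those with different tags at -0.28 to 0.009. With the P tag as a term 20 members passed, 7 higher and 13 lower, with the calls of Pik3r4, Atg16l1 and Tax1bp1 lost there too. The shares of all genes with the block or the tag as a term are not given here. Depth limits Retreg1 most, with 119 counts over the DMSO libraries and 64 over the DTG libraries.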

Other observations

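Genes that set the rate of autophagy from outside the machinery were read from 2 further lists. Of 21 genes around mTORC1, the kinase complex that holds autophagy back, AMPK and the sestrins, 19 were tested, 5 rose and 5 fell, with a median of -0.05; with library size alone 3 rose and 11 fell, and without DMSO replicate 2 or DTG replicate 3 only 3 fell. The sestrins, stress-induced inhibitors of mTORC1, split. Sesn1 was at 45.5, 45.6 and 41.6 CPM in DMSO and at 12.3, 10.4 and 12.2 CPM in DTG, a log2 change of -1.92 ± 0.09 (edgeR, adjusted p = 2.72e-07). Sesn3 fell from 69.7 ± 5.60 to 41.5 ± 2.42 CPM (-0.75 ± 0.09, adjusted p = 4.89e-05). Sesn2, named here after its values were seen, was at 41.5, 37.4 and 33.3 CPM in DMSO and at 66.2, 129.7 and 121 CPM in DTG, where replicate 1 was the lowest (1.50 ± 0.25, adjusted p = 0.00176). The count ratio of Sesn2 to Sesn1 within a library went from 0.912, 0.82 and 0.8 in DMSO to 5.37, 12.4 and 9.96 in DTG.

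Of 10 transcription factors known to act on autophagy genes, 5 rose and 3 fell, with a median of 0.21; with library size alone or upper-quartile factors 4 rose and 3 fell. Beside Atf4 and Ddit3, the following were named after their values were seen. Tfeb, a master regulator of lysosomal and autophagy genes, fell from 17.2 ± 1.68 to 8.52 ± 1.65 CPM (-1.02 ± 0.14, adjusted p = 0.000173). Its relative Mitf, at a low level, rose from 1.99 ± 0.247 to 3.46 ± 0.342 CPM (0.80 ± 0.16, adjusted p = 0.00169). Foxo3, an activator of autophagy genes, fell from 119 ± 4.42 to 80.2 ± 7.29 CPM (-0.56 ± 0.08, adjusted p = 0.000275). The forkhead repressor paralogs moved apart: Foxk1 fell by 0.37 ± 0.07 (adjusted p = 0.00128) and Foxk2 rose by 0.75 ± 0.08 (adjusted p = 2.66e-05). Tfe3, another relative of Tfeb and the smallest of the 5 rises, went from 64.2 ± 3.42 to 75.8 ± 8.29 CPM (0.24 ± 0.09, adjusted p = 0.0474), and it passed under 6 of 16 alternatives (adjusted p 0.00274 to 0.541). It was lost with library size alone, with upper-quartile factors and without any 1 library other than DTG replicate 1. The calls on Sesn1, Sesn2, Sesn3, Tfeb, Mitf, Foxo3, Foxk1 and Foxk2 kept their direction and passed under all 16.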
